A study of Homo sapiens with 20 samples.

Results

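The genes described here are the heat shock factors HSF1 and HSF2, the factor-binding protein HSBP1, the heat shock factor targets IER5, BAG3, HSPB1 and CRYAB, and the stress ubiquitin genes UBB and SQSTM1. They were chosen by name as the HSF1 axis with its targets outside the HSP70 family, and make up 9 of the 36601 genes in the count table. The choice was made with earlier results of these data known. The filter on low counts kept 8 of the 9, and CRYAB was left out of the tests. The cells were of the established breast cancer line MDA-MB-231, which is human and of basal, mesenchymal-like character, in 20 samples of 5 groups with 4 samples each. Untreated cells received neither nanoparticles nor light. A second group was held with biomimetic nanoparticles for 4 h at 0.1 mg/ml and was not lit. The other 3 groups received the same nanoparticles and then 10 min of 808 nm continuous-wave laser light at a controlled 46, 50 or 54 °C. A group lit without nanoparticles, or heated without light, was not analysed here, and the effects of heat and of light cannot be told apart. The interval between the laser and lysis is not given in the sources used here, and nothing says that the samples of a group were separate cultures, so the p-values rest on a spread between samples that may be technical only.

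HSF1 is the main transcription factor of the heat shock response. In unstressed cells it is held inactive by chaperones, and when proteins unfold it forms trimers, binds heat shock elements in DNA and switches on chaperone genes. Its activity is set largely on the protein, by release from chaperones and by modification, and not by the amount of its mRNA. Heat shock elements are built of the unit NGAAN in alternating orientation. The small heat shock proteins hold unfolding proteins in a soluble state, BAG3 hands such clients from HSP70 to autophagy, and ubiquitin with the receptor SQSTM1 (p62) marks and collects those that are to be destroyed.

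Upstream sequence is shown for the 3 members other than SQSTM1 that were higher at 46 °C, because these are the genes on which the comparison turns. The windows come from RefSeq on GRCh38.p14, read 5′ to 3′ on the strand of the gene, and each stops before the annotated start of the gene in GENCODE v29. Capitals mark the fixed letters of a pair of NGAAN units facing each other, GAANNTTC. The search also covered TTCNNGAA, and since each word is its own reverse complement, a match counts for both strands.

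IER5 at chr1:181088450-181088699: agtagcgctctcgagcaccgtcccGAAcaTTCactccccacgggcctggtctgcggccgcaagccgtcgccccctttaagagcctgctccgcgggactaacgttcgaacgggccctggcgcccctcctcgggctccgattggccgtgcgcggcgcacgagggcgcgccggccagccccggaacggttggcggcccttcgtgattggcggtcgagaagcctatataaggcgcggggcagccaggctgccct

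BAG3 at chr10:119651130-119651369: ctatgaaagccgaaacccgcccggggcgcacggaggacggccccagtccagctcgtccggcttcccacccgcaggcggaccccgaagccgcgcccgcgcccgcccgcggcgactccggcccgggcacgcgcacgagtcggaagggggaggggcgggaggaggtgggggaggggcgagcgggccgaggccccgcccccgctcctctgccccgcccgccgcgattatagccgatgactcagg

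HSPB1 at chr7:76302423-76302543: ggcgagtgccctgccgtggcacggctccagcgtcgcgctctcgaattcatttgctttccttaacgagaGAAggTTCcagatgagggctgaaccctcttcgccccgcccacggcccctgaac

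RefSeq windows of 7 of the 9 genes were searched, 11 windows in all, and HSF1 and CRYAB were not among them. Of these 7 genes, 2 held a match in the 250 bases before the start, each in its only window. Some of the other genes had several windows, and the percentages given below count windows and not genes. In IER5 the match began 226 bases before the RefSeq start. In HSPB1 it began 182 bases before the RefSeq start and 53 bases before the GENCODE start. The BAG3, HSF2, HSBP1, UBB and SQSTM1 windows held neither word, which says only that these letters are not in those windows. Among 34943 RefSeq windows of the same length, 5.8% held GAANNTTC, 6.62% held TTCNNGAA and 11.6% held at least one of the pair. The longer words GAANNTTCNNGAA and TTCNNGAANNTTC, reverse complements of each other that contain both shorter ones, were in 0.441% of all windows and in 0 of the 7 genes.

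The libraries held 2401179 to 7710976 counts, and depth differed between groups. Totals were 2401179 to 3245482 at 46 °C, 3884835 to 4382966 at 50 °C and 6154155 to 7710976 at 54 °C. They were 2709084 to 4538999 with nanoparticles alone and 2428487 to 4952115 in untreated cells. Replicates of a group correlated at 0.891 to 0.942 across genes in log2 CPM (counts scaled to the library total). Median CPM over the 20 libraries is given for 8 genes that mark this line. It was 1710 for VIM, 1440 for LGALS1, 702 for CD44, 583 for AXL and 410 for CAV1. MSN, ANXA1 and S100A4 had 265, 264 and 48.5 CPM. Of 10 luminal genes, ESR1, PGR, FOXA1 and CDH1 had a median of 0, and the other 6 were detected, with medians of 250 CPM for KRT18, 126 CPM for KRT8, 95.2 CPM for KRT19, 12.2 CPM for GATA3, 9.09 CPM for ERBB2 and 2.52 CPM for TFF1. Of 6 blood cell genes, CD68 had a median of 8.9 CPM and PTPRC, LYZ, CD3E, CD79A and HBB had a median of 0. Signs of RNA composition moved with the groups. Against nanoparticles alone, 9 of 13 mitochondrially encoded mRNAs were lower at 46 °C, where their summed level was 42400 to 53900 CPM against 107000 to 125000 CPM. At 50 °C 6 of 13 were higher, with a summed level of 152000 to 211000 CPM. At 54 °C 1 of 13, MT-ND6, was lower, with a summed level of 124000 to 154000 CPM. Of 7 long noncoding RNAs tested, 3 were higher at 46 °C. At 50 °C MALAT1 and NEAT1 were higher and NORAD lower, and at 54 °C MALAT1 and NEAT1 were higher. Of 10 replication-dependent histone genes, 2 were higher at 50 °C. Over all tested genes, 0.617% were higher and 0.346% lower at 46 °C, 0.527% and 0.691% at 50 °C, and 0.0741% and 0.0494% at 54 °C. The part of these shifts in the values below was not tested. In bulk RNA, fewer cells that express a gene and less of its RNA per cell cannot be told apart.

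Nanoparticles alone moved none of the genes past the test. Against untreated cells 0 of the 8 tested members were called, beside 0% of all 12149 tested genes higher and 0% lower by edgeR's quasi-likelihood test with a Benjamini-Hochberg adjusted p under 0.05. At an unadjusted p under 0.05 there were 479 genes and 0 members, and DESeq2 also called 0 genes, with 626 at an unadjusted p under 0.05. The median log2 fold change was 0.013 over the 8 members and -0.004 over all tested genes. The 95% interval of IER5 ran from -0.38 to 0.14 and that of HSPB1 from -0.12 to 0.40 on the log2 scale.

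At 46 °C, 4 of the 8 tested members were higher than with nanoparticles alone and 0 were lower, beside 0.617% of all tested genes higher and 0.346% lower. These were IER5, BAG3, HSPB1 and SQSTM1. Since the members were chosen with earlier results of these data known, the counts are a description. The median log2 fold change of the 8 members was 0.386, and that of all tested genes was 0.011. At 50 °C only SQSTM1 was called among the members, beside 0.527% of all genes higher and 0.691% lower, and at 54 °C 0 members were called by edgeR, beside 0.0741% higher and 0.0494% lower. At 54 °C 1 member, SQSTM1, had an unadjusted p under 0.05, and DESeq2 called 0. The 3 laser groups share the same 4 libraries with nanoparticles alone as their control.

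**Figure D1:**
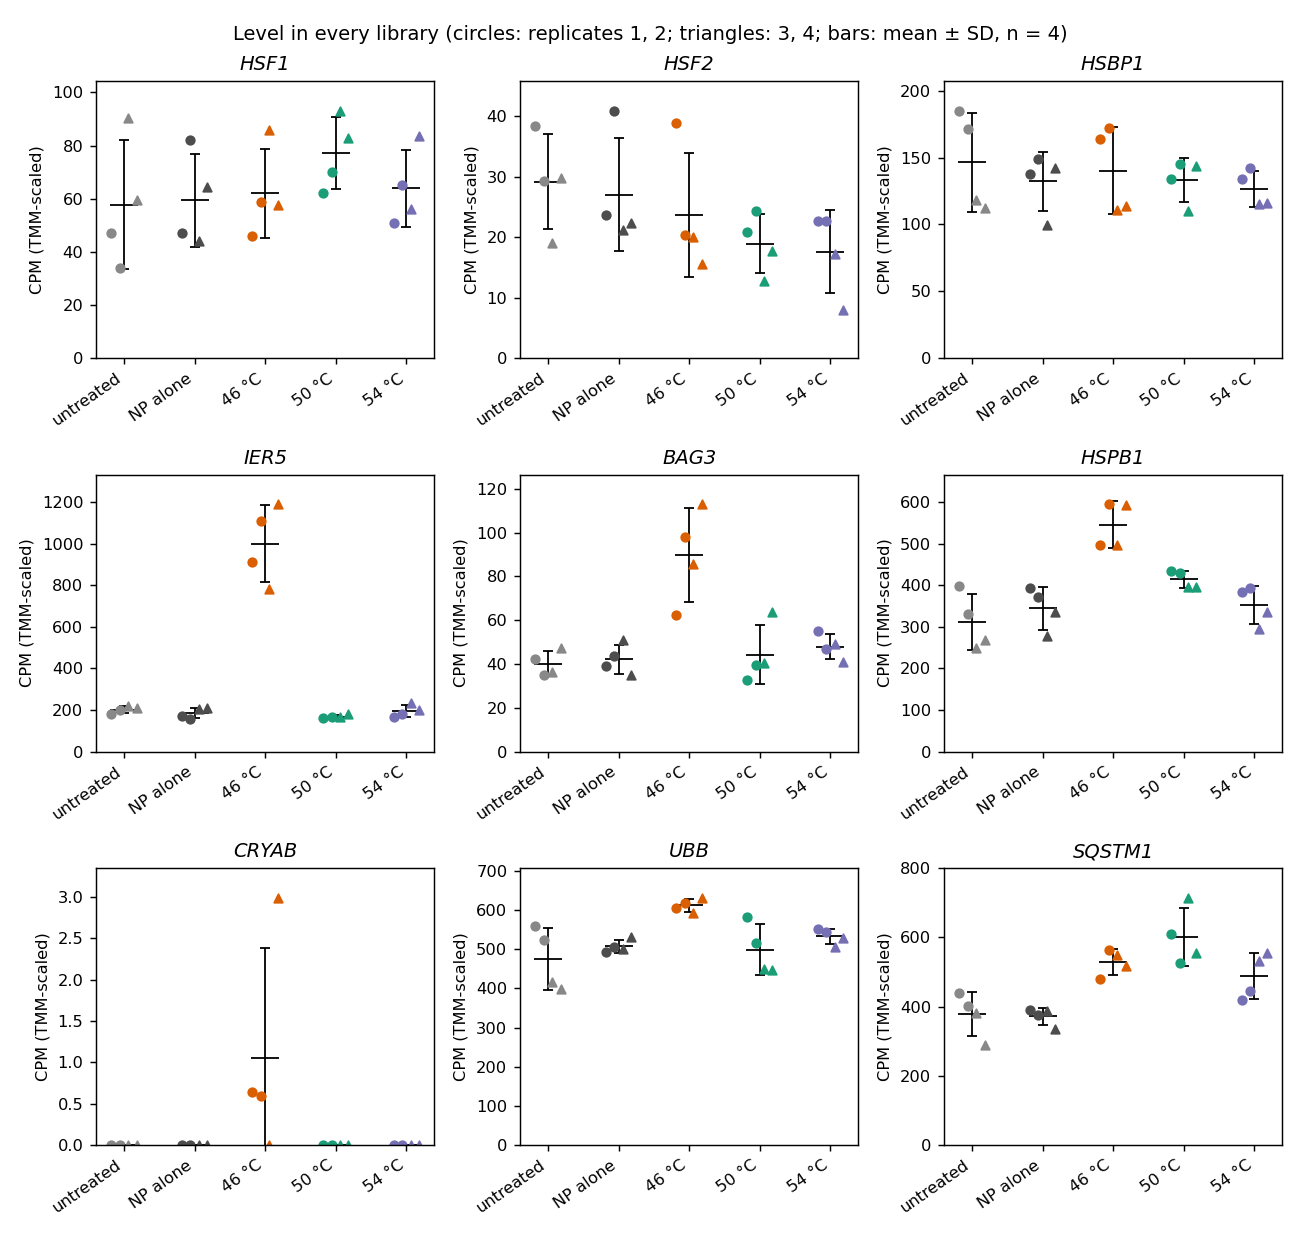
TMM-scaled CPM of the 9 genes in each of the 20 libraries by group, with the mean and SD of 4 libraries. IER5 stands at 782 to 1190 CPM in the 46 °C libraries and at 157 to 233 CPM in the other 16, whereas HSF1, HSF2 and HSBP1 overlap between every pair of groups. NP, nanoparticles.

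The mRNAs of the factors themselves did not pass the test at any laser temperature. HSF1 was at 46.1, 58.8, 85.8 and 57.5 CPM at 46 °C and at 46.9, 82, 44 and 64.4 CPM with nanoparticles alone. These ranges overlap widely. The log2 difference was 0.06 ± 0.24 (SE, n = 4 per group), with a 95% interval from -0.42 to 0.54 and an adjusted p of 0.966. Group means ordered as 57.7 ± 24.2 CPM (SD) in untreated cells, 59.3 ± 17.6 in cells given only nanoparticles, 62 ± 16.8 at 46 °C, 63.9 ± 14.4 at 54 °C and 77.1 ± 13.6 at 50 °C, and no neighbours in this order differed beyond their spread. The largest of the HSF1 differences from nanoparticles alone was 0.37 ± 0.24 on the log2 scale at 50 °C, with an adjusted p of 0.611. HSF1 overlaps the gene DGAT1 on the other strand by 139 bases, and the strand setting of the counting is not given in the sources used here. DGAT1 had 1039 counts in all libraries together and HSF1 had 5330.

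HSF2 (chromosome 6, 122399546 to 122433119, GRCh38), a second heat shock factor that can form mixed trimers with HSF1, was spread widely within groups. It was at 38.3, 29.3, 19.1 and 29.8 CPM in untreated cells, at 23.6, 40.9, 21.1 and 22.4 CPM with nanoparticles alone, at 38.8, 20.3, 20 and 15.6 CPM at 46 °C, at 20.8, 24.3, 12.8 and 17.7 CPM at 50 °C and at 22.7, 22.6, 17.2 and 7.99 CPM at 54 °C. The group means were 29.1, 27, 23.7, 18.9 and 17.6 CPM in that order, with SDs of 4.87 to 10.3 CPM, and each group overlapped every other. At 54 °C the log2 difference from nanoparticles alone was -0.62 ± 0.32 (SE), with a 95% interval from -1.26 to 0.03 and an adjusted p of 0.894. HSF2 also differed between replicate numbers. Over all 5 groups, replicates 3 and 4 were lower than replicates 1 and 2 by a log2 difference of -0.64 ± 0.19 (SE; adjusted p = 0.0182), a division found after the values were seen, in which 4.17% of all tested genes were higher and 4.65% lower.

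HSBP1 (chromosome 16, 83807843 to 83819737), a small coiled-coil protein that binds heat shock factor trimers and dampens them, was at 164, 172, 111 and 114 CPM at 46 °C and at 138, 149, 99.7 and 142 CPM with nanoparticles alone. The ranges overlap, and the log2 difference was 0.09 ± 0.17 (SE) with a 95% interval from -0.25 to 0.42. The group means ran from 127 ± 13.3 CPM at 54 °C through 132 ± 22 with nanoparticles alone, 133 ± 15.9 at 50 °C and 140 ± 32.1 at 46 °C to 147 ± 36.8 CPM in untreated cells. Neighbours in that order did not differ beyond their spread. HSBP1 was also lower in replicates 3 and 4 than in replicates 1 and 2, by -0.37 ± 0.09 on the log2 scale (adjusted p = 0.00176). In 3 of the 5 groups both of replicates 3 and 4 were below both of replicates 1 and 2. This division was found after the values were seen, and 4.17% of all tested genes were higher in it and 4.65% lower.

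IER5 (chromosome 1, 181088712 to 181092899) is an immediate early gene whose protein brings the phosphatase PP2A to HSF1 and raises its activity, and which is itself switched on by HSF1. It was at 914, 1110, 782 and 1190 CPM at 46 °C. With nanoparticles alone it was at 171, 157, 204 and 209 CPM and in untreated cells at 180, 202, 219 and 208 CPM. Every library at 46 °C lay far above every other library. The mean rose from 185 ± 25.2 CPM (SD, n = 4) to 998 ± 184 CPM, which is 5.39-fold, with a log2 difference of 2.43 ± 0.13 (SE) and an adjusted p of 2.38e-20. At 50 °C the gene was at 160, 168, 164 and 180 CPM and at 54 °C at 167, 183, 233 and 201 CPM. All of these but replicate 3 at 54 °C, the highest of them, lie in the range of the unlit cells, and the log2 differences from nanoparticles alone were -0.14 ± 0.13 (95% interval -0.40 to 0.12) and 0.08 ± 0.13 (-0.18 to 0.34).

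IER5 was thus high at one laser temperature and not at the others. From 46 to 50 °C IER5 was lower by a log2 difference of -2.57 ± 0.14 (SE; adjusted p = 2.37e-21), or 5.94-fold, and from 46 to 54 °C by -2.35 ± 0.13 (adjusted p = 7.43e-20), or 5.10-fold. Within replicates 1 and 2 the rise at 46 °C was 2.62 and within replicates 3 and 4 it was 2.25. IER5 was called in every alternative for these 3 comparisons.

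BAG3 (chromosome 10, 119651370 to 119677819), the co-chaperone that couples HSP70 and the small heat shock proteins to selective autophagy, was also highest at 46 °C. It was at 62.5, 97.9, 85.8 and 113 CPM at 46 °C and at 39.2, 43.5, 50.8 and 34.9 CPM with nanoparticles alone. The lowest library at 46 °C was above the highest unlit one. The mean rose 2.14-fold from 42.1 ± 6.77 CPM (SD, n = 4) to 89.9 ± 21.5 CPM, a log2 difference of 1.10 ± 0.22 (SE; adjusted p = 0.00151), and it was 0.95 within replicates 1 and 2 and 1.22 within replicates 3 and 4. At 50 °C BAG3 was at 32.9, 39.5, 40.5 and 63.7 CPM, so that replicate 4 overlapped the lowest library at 46 °C. At 54 °C it was at 55.1, 46.8, 49.2 and 40.8 CPM, all below 46 °C. The differences from 46 °C were -1.03 ± 0.22 at 50 °C (SE; adjusted p = 0.00323) and -0.90 ± 0.21 at 54 °C (adjusted p = 0.0198). The call at 50 °C was lost within replicates 3 and 4 (-0.94, adjusted p = 0.191). The call at 54 °C was lost within either pair of replicates and without any one of replicates 2 and 4 at 46 °C and replicates 2, 3 and 4 at 54 °C, where the log2 difference ran from -0.65 to -1.14 and the adjusted p from 0.0577 to 0.278.

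Of the 6 BAG genes, all tested, BAG3 alone was called at 46 °C, beside 0.617% of all tested genes higher and 0.346% lower. BAG1 and BAG2 had log2 differences of -0.00 ± 0.21 and -0.00 ± 0.22 (SE), BAG5 had 0.16 ± 0.23, BAG4 had -0.34 ± 0.33 and BAG6, a chaperone for membrane proteins in transit, had -0.46 ± 0.15 with an adjusted p of 0.151. The difference between BAG3 and the other BAG genes was not tested.

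HSPB1 (HSP27; chromosome 7, 76302544 to 76304295), a small heat shock protein found in many tissues, was at 498, 595, 496 and 594 CPM at 46 °C. It was at 394, 371, 277 and 335 CPM with nanoparticles alone and at 398, 332, 250 and 269 CPM in untreated cells. Every library at 46 °C was above every unlit one. The mean rose 1.58-fold from 344 ± 50.9 CPM (SD, n = 4) to 546 ± 56.4 CPM, a log2 difference of 0.66 ± 0.13 (SE; adjusted p = 0.0014). At 50 °C HSPB1 was at 435, 430, 396 and 397 CPM and at 54 °C at 384, 394, 295 and 335 CPM. The 50 °C libraries thus lay between the 46 °C libraries and those with nanoparticles alone without overlap with either, yet neither difference passed the test. It was 0.27 ± 0.13 against nanoparticles alone (adjusted p = 0.426) and -0.40 ± 0.13 against 46 °C (adjusted p = 0.138). The latter was called with library totals (-0.57, adjusted p = 0.00393) and with DESeq2 (-0.40, adjusted p = 0.0482). Library totals moved the median of all tested genes between 46 and 50 °C as well, from -0.004 to -0.177. At 54 °C HSPB1 was lower than at 46 °C by -0.63 ± 0.13 (SE; adjusted p = 0.00322), a call lost without replicate 3 at 54 °C (-0.56, adjusted p = 0.0532).

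HSPB1 was also lower in replicates 3 and 4 than in replicates 1 and 2, by -0.25 ± 0.07 (adjusted p = 0.00638). In 4 of the 5 groups both of replicates 3 and 4 were below both of replicates 1 and 2. This division was found after the values were seen, and 4.17% of all tested genes were higher in it and 4.65% lower. The rise of HSPB1 at 46 °C was present within each pair. It was 0.51 within replicates 1 and 2 (adjusted p = 0.0102) and 0.83 within replicates 3 and 4 (adjusted p = 0.000426). The reference annotation lists 2 processed pseudogenes of HSPB1 that have no row in the table, and reads shared with such copies cannot be told apart from those of the gene.

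CRYAB (alphaB-crystallin; chromosome 11, 111908565 to 111923722), the small heat shock protein of lens and muscle, was close to undetected. It had 2, 2, 0 and 9 counts in the 4 libraries at 46 °C and 0 counts in each of the other 16. Of the 13 counts, 9 were in replicate 4. Over the summed libraries at 46 °C the 13 counts stood for 1.13 CPM, with an exact 95% Poisson interval from 0.603 to 1.93 CPM that covers counting error only. A count of 0 over a group allows up to 3 counts, which is 0.197 CPM with nanoparticles alone, 0.182 CPM at 50 °C and 0.111 CPM at 54 °C, and these limits lie below that interval. The level at 46 °C was 5.73 times the limit with nanoparticles alone. Without replicate 4 it was 0.466 CPM from 4 counts, 2.36 times that limit, and the interval of 0.127 to 1.19 CPM then held the limits with nanoparticles alone and at 50 °C. CRYAB fell below the filter on low counts and was not tested. It overlaps HSPB2 and C11orf52 on the other strand, both of which had 0 counts.

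Of the 11 small heat shock protein genes in the table, 3 passed the filter on low counts, namely HSPB1, HSPB8 and HSPB11. HSPB8, the partner of BAG3 in chaperone-assisted autophagy, was at 14.5 ± 3.73 CPM (SD, n = 4) at 46 °C and 14.9 ± 3.32 CPM with nanoparticles alone, a log2 difference of -0.03 ± 0.39 (SE). HSPB11, a protein of transport within cilia, was at 135 ± 18.4 CPM and 106 ± 6.62 CPM, a difference of 0.35 ± 0.20 with an adjusted p of 0.529. HSPB6 had 4 counts at 46 °C, 19 with nanoparticles alone and 16 at 50 °C.

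**Figure D2:**
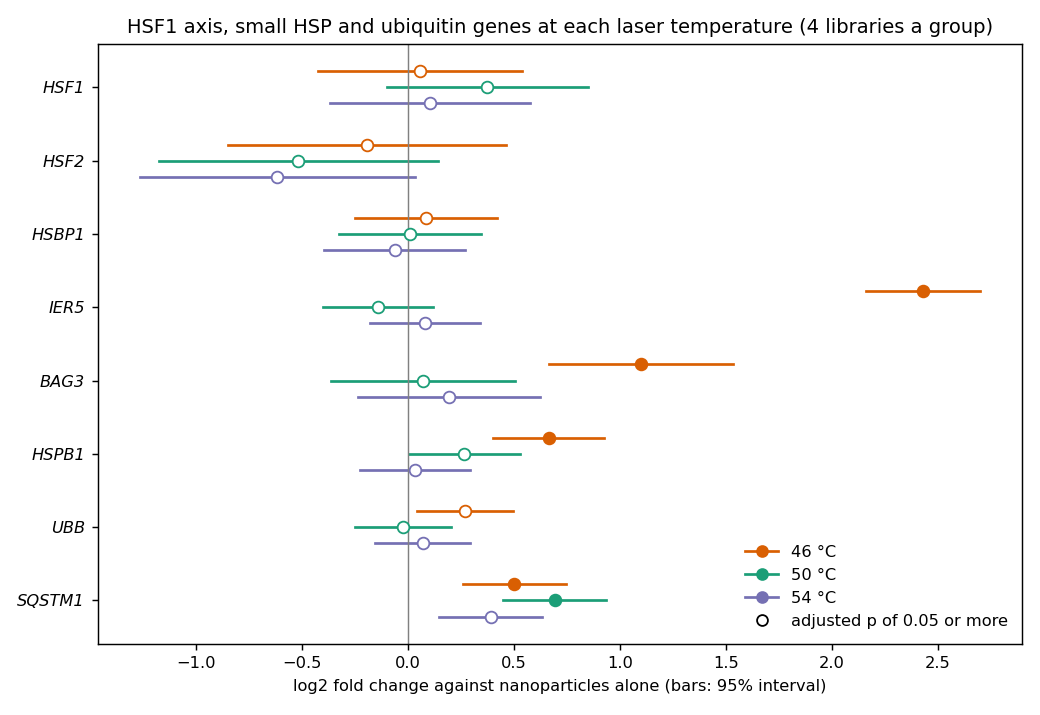
Log2 fold change of the 8 tested genes against nanoparticles alone at 46, 50 and 54 °C, with 95% intervals. Filled points passed an adjusted p under 0.05: IER5 at 2.43, BAG3 at 1.10, HSPB1 at 0.66 and SQSTM1 at 0.50 at 46 °C, and SQSTM1 at 0.69 at 50 °C.

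UBB (chromosome 17, 16380798 to 16382745) is one of the polyubiquitin genes, which encode ubiquitin as head-to-tail repeats and serve as the reserve drawn on in stress. It was at 606, 618, 592 and 632 CPM at 46 °C and at 493, 507, 500 and 531 CPM with nanoparticles alone. The groups did not overlap, with means of 612 ± 16.8 CPM (SD, n = 4) and 508 ± 16.5 CPM. The log2 difference of 0.27 ± 0.11 (SE) did not pass the test, with an unadjusted p of 0.0202 and an adjusted p of 0.307. Untreated cells spread more widely, at 560, 524, 417 and 399 CPM. At 50 °C UBB was at 583, 517, 450 and 448 CPM and at 54 °C at 552, 544, 506 and 529 CPM, and all of these lay below the lowest library at 46 °C. The difference between 50 and 46 °C was -0.29 ± 0.11 (adjusted p = 0.257), and with library totals it was called (-0.46, adjusted p = 0.0078). Library totals also moved the median of all tested genes in this comparison, from -0.004 to -0.177. The annotation lists 5 UBB pseudogenes that have no row in the table, so that reads of such copies may have been given to UBB.

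SQSTM1 (chromosome 5, 179806398 to 179838078) encodes p62, the receptor that binds ubiquitinated proteins and draws them into autophagosomes, and is a known target of the oxidative stress factor NRF2. Its mean was highest at 50 °C. It was at 481, 565, 550 and 516 CPM at 46 °C, at 611, 525, 715 and 555 CPM at 50 °C and at 419, 445, 533 and 556 CPM at 54 °C. With nanoparticles alone it was at 389, 377, 388 and 336 CPM and in untreated cells at 439, 403, 383 and 290 CPM. All 12 lit libraries were above all 4 with nanoparticles alone. The log2 difference from nanoparticles alone was 0.50 ± 0.12 at 46 °C (SE; 1.42-fold; adjusted p = 0.0201), 0.69 ± 0.12 at 50 °C (1.61-fold; adjusted p = 0.000294) and 0.39 ± 0.12 at 54 °C (1.31-fold; adjusted p = 0.368, unadjusted p = 0.00233).

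The laser temperatures did not differ from each other in SQSTM1 beyond the test. From 46 to 50 °C the difference was 0.19 ± 0.12 (95% interval -0.06 to 0.43) and from 50 to 54 °C it was -0.30 ± 0.12 (-0.55 to -0.06; adjusted p = 0.614). The call at 50 °C held within replicates 1 and 2 (0.57, adjusted p = 0.00381) and within replicates 3 and 4 (0.81, adjusted p = 0.00052). The call at 46 °C was lost within replicates 3 and 4 (0.56, adjusted p = 0.0547), without replicate 2 or 4 of nanoparticles alone (adjusted p of 0.0586 and 0.118) and without replicate 2 or 3 at 46 °C (adjusted p of 0.089 and 0.0555). On the other strand SQSTM1 overlaps MGAT4B by 555 bases and MRNIP by 2946 bases. MGAT4B, with 17119 counts in all, had a log2 difference of -0.24 at 46 °C (adjusted p = 0.561) and 0.19 at 50 °C (adjusted p = 0.704), and MRNIP, with 505 counts in all, had 1.33 (adjusted p = 0.373) and 0.88 (adjusted p = 0.648).

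The 3 comparisons between laser temperatures put the members together as follows. From 46 to 50 °C, 2 of the 8 were lower (IER5 and BAG3) and 0 higher, beside 0.584% of all tested genes higher and 0.609% lower, and the median was -0.309 over the members against -0.004 over all genes. From 46 to 54 °C, 3 of the 8 were lower (IER5, BAG3 and HSPB1) and 0 higher, beside 0.239% higher and 0.395% lower. From 50 to 54 °C 0 members were called, beside 0.0576% of all genes higher and 0.14% lower, and 1 member, SQSTM1, had an unadjusted p under 0.05 by edgeR. DESeq2 also called 0 members from 50 to 54 °C. These comparisons share the 46 °C or the 50 °C libraries.

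Related genes were read from lists fixed by name, and some of these lists also hold members. The first holds the members HSF1, HSF2, HSBP1 and IER5. Of 18 heat shock factor genes and regulators, 16 were tested, and at 46 °C 3 were higher and 0 lower, beside 0.617% of all tested genes higher and 0.346% lower. The 3 were IER5, its relative IER2 (0.64 ± 0.16, SE; adjusted p = 0.0201) and HSP90AA1, the inducible HSP90 that holds HSF1 inactive (0.83 ± 0.08; adjusted p = 2.81e-10). IER2 lost its call within replicates 3 and 4 and without any one of replicates 1, 2 and 3 of nanoparticles alone and replicates 1, 2 and 4 at 46 °C, with an adjusted p up to 0.544. HSF2BP, a meiotic protein that binds HSF2, had a large but uncertain difference, from 1.05 ± 0.709 CPM (SD, n = 4) to 6.21 ± 4.49 CPM (log2 2.54 ± 1.00, SE; adjusted p = 0.268). At 50 °C, where 0.527% of all tested genes were higher and 0.691% lower, the one gene called was IER5L, a paralog of IER5, which fell from 28.6 ± 7.85 CPM to 8.4 ± 1.24 CPM (-1.76 ± 0.36; adjusted p = 0.00244), and this call was lost within replicates 3 and 4 (adjusted p = 0.345). IER5L was at -0.76 ± 0.34 at 46 °C (adjusted p = 0.382), where IER5 was at 2.43. At 54 °C 0 of the 16 were called by edgeR, with 1 at an unadjusted p under 0.05, and 0 by DESeq2.

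Among 16 other targets of HSF1 outside the HSP70, HSP40 and HSP90 families, all tested, 3 were higher at 46 °C and 0 lower, beside the same 0.617% and 0.346% of all tested genes. RGS2, a brake on G-protein signalling, rose from 4.35 ± 4.54 CPM (SD, n = 4) to 46.3 ± 11.3 CPM (log2 3.46 ± 0.58, SE; adjusted p = 0.000364), a call lost within replicates 3 and 4 (adjusted p = 0.114). PPP1R15A (GADD34), which restarts translation after stress, rose by 1.08 ± 0.18 (adjusted p = 0.000116). HSPD1, the mitochondrial chaperonin HSP60, rose by 0.62 ± 0.12 (adjusted p = 0.00104). The median of the list was 0.338 on the log2 scale at 46 °C, -0.059 at 50 °C and -0.061 at 54 °C, against 0.011, 0.018 and 0.008 over all tested genes, and edgeR and DESeq2 called 0 of the 16 at 50 and at 54 °C, with 1 at an unadjusted p under 0.05 at 50 °C and 0 at 54 °C.

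Of 17 genes of ubiquitin stress and proteolysis, which unfold, edit and deliver ubiquitinated proteins, 16 were tested and 0 were called at 46 °C by edgeR, with 2 at an unadjusted p under 0.05, and DESeq2 called 0. At 50 °C 1 of the 16 was higher and 1 lower, beside 0.527% of all tested genes higher and 0.691% lower. HUWE1, a large ubiquitin ligase, was higher (0.57 ± 0.15, SE; adjusted p = 0.0392) and USP14, the deubiquitinase of the proteasome, was lower (-0.54 ± 0.14; adjusted p = 0.0283). Both lost the call within replicates 3 and 4 and without any one of replicates 1 and 2 of nanoparticles alone and replicates 1, 2 and 4 at 50 °C. HUWE1 also lost it with library totals and without replicate 4 of nanoparticles alone, and the adjusted p rose to 0.414 for HUWE1 and 0.642 for USP14. Of 13 genes of selective autophagy, all tested, the member SQSTM1 was the only one called. It was called at 46 °C, where 0.617% of all tested genes were higher, and at 50 °C, where 0.527% were. At 54 °C 0 were called by either tool, and 2 had an unadjusted p under 0.05 by edgeR. The lists were chosen with earlier results of these data known, and their counts are given as a description.

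**Figure D3:**
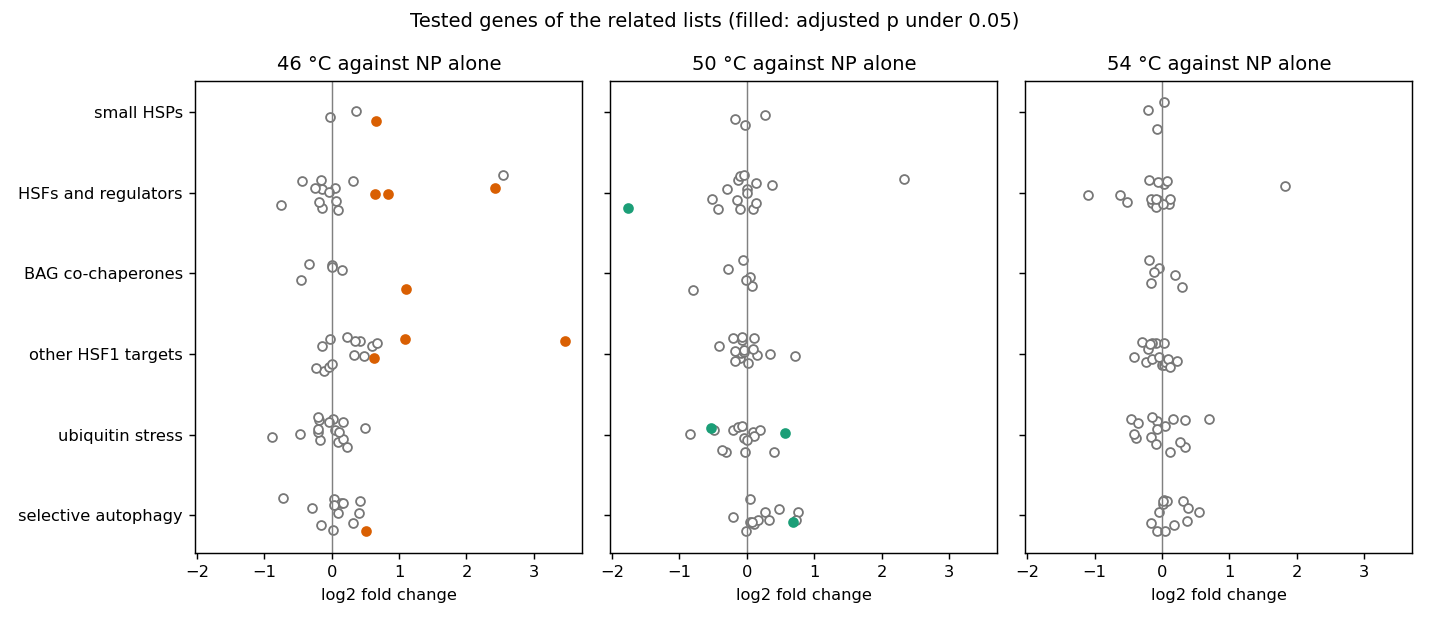
Log2 fold change against nanoparticles alone of every tested gene in 6 lists at 46, 50 and 54 °C, 1 point per gene, with filled points for an adjusted p under 0.05. At 46 °C the filled points lie to the right of 0 and include RGS2 at 3.46 and IER5 at 2.43. At 50 °C IER5L at -1.76 and USP14 at -0.54 lie to the left, and SQSTM1 at 0.69 and HUWE1 at 0.57 to the right. At 54 °C no point is filled. NP, nanoparticles.

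The genes most like each called member over the 20 libraries, are given by Pearson correlation of log2 CPM. For IER5 they were the HSP70 genes HSPA1B (r = 0.987) and HSPA1A (r = 0.976) and the HSP40 gene DNAJB1 (r = 0.984). HSPA1A was at 28.6 ± 7.94 CPM (SD, n = 4) with nanoparticles alone, but 1760 ± 325 CPM at 46 °C, 21 ± 8.9 CPM at 50 °C and 23.4 ± 5.23 CPM at 54 °C. For BAG3 they were HSPA1A (r = 0.851), HSPA1B (r = 0.85) and the HSP110 gene HSPH1 (r = 0.842). These correlations rest on the 46 °C group: over the other 16 libraries r was 0.586, 0.099 and 0.145 for HSPA1B, HSPA1A and DNAJB1 with IER5, and 0.162, 0.073 and -0.015 for HSPA1A, HSPA1B and HSPH1 with BAG3.

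For HSPB1 the most alike genes included ANKRD1 (r = 0.857) and CXCL8 (r = 0.837), and for SQSTM1 they were NAMPT (r = 0.893) and the unnamed loci AC007952.4 (r = 0.872) and AC067930.8 (r = 0.871). Without the 46 °C libraries r was 0.79 and 0.818 for HSPB1 and 0.917, 0.883 and 0.89 for SQSTM1. AC007952.4 was at 24 ± 2.97 CPM (SD, n = 4) with nanoparticles alone, but 123 ± 49.1 CPM at 46 °C, 351 ± 59.6 CPM at 50 °C and 65.6 ± 8.06 CPM at 54 °C. AC067930.8 was close to undetected in unlit cells, at 0.343 ± 0.397 CPM with nanoparticles alone. It was at 8.11 ± 6.03, 16 ± 2.06 and 3.24 ± 1.38 CPM at 46, 50 and 54 °C. ANKRD1 was at 417 ± 81.1 CPM, 1060 ± 318 CPM, 791 ± 231 CPM and 585 ± 191 CPM in the same order. Among the members, IER5 and BAG3 had r = 0.847 over the 20 libraries and 0.02 over the 16 outside 46 °C, and IER5 and HSPB1 had 0.668 and -0.844. The points of each correlation share groups, depth and replicate numbers, so the values are a description.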

How the data were processed

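RNA from MDA-MB-231 cells, 2 wells pooled per sample, was sequenced from the 3′ end with a QuantSeq FWD kit, per the labels' protocols. From the reads the authors made a table of estimated counts, 1 row per gene. The submitters' processing notes name STAR, Salmon and GRCh38. Their versions, the annotation, the strand setting and whether molecular identifiers were used are not stated there. In each library 1.74% to 2.9% of values were fractional, and every value was rounded.

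Groups were taken from sample titles. The test was edgeR 4.0.16 under R 4.3.3 (a robust quasi-likelihood fit with 5 group means, all 20 samples, TMM scaling, count minimum 10 and total 15, 12149 genes), adjusted after Benjamini and Hochberg over every tested gene with a threshold of 0.05. Standard errors were derived as the absolute log2 difference divided by the square root of that test's F statistic. The 95% intervals were built from them with a t quantile. CPM are TMM-scaled, with a prior count of 2 where logged, except that the CRYAB levels and limits over summed libraries use unscaled totals. Libraries held 2401179 to 7710976 counts, and reads copied by PCR are not independent, so limits from counts cover counting error only. No library was a duplicate of another. The script was tested on simulated data. Positions are from GENCODE v29 (GRCh38) and upstream windows from RefSeq (GRCh38.p14). Alternatives were DESeq2 1.42.0, library totals, RLE factors, no filter, a replicate block, either pair of replicates alone, and leaving out each library.

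The members and lists were chosen with earlier results of these data known. Named besides the members were, per list and laser temperature, up to 3 called genes with the smallest p, the BAG and small heat shock protein genes, and the 3 genes most correlated with each member called against nanoparticles alone. HSF2BP, and the genes that overlap a member, were named after their values were seen. One related gene list and one of these correlated genes are not reported here.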

Additional observations from a re-analysis of the deposited data

Results flagged for a closer look

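HSF2 with nanoparticles alone had 1 library far from the other 3. Replicate 2 stood at 40.9 CPM, and the others lay between 21.1 and 23.6 CPM. The gap to the nearest library was 0.876 of the range of the group, above Dixon's 95% critical value for 4 samples. Chance flags about 1 in 20 groups, and 41 groups were checked. HSF2 was not called in any comparison.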

How the results depend on the processing

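Of the 56 values from 8 tested members in 7 comparisons, 10 were called, none of the 10 changed sign under any alternative, and 6 of them were called under every alternative. Of the 46 values not called, 2 gained a call in some alternative (HSPB1 and UBB from 46 to 50 °C), and 25 changed sign in at least one while staying uncalled. The count of members called from 46 to 50 °C was 2, and it was 4 with library totals and 1 within replicates 3 and 4. Leaving out 1 library gave 3 to 4 members at 46 °C, and 1 to 3 from 46 to 54 °C, with the lowest value without replicate 3 at 54 °C.

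Counts of all genes called moved more. In the order 46, 50 and 54 °C against nanoparticles alone, then 46 to 50, 50 to 54 and 46 to 54 °C, they were 117, 148, 15, 145, 24 and 77. A replicate block gave 269, 333, 46, 353, 68 and 160, and DESeq2 gave 182, 249, 32, 265, 62 and 132. With the replicate block HSPB1 was also called lower from 46 to 50 °C (-0.40, adjusted p = 0.0137). Same-numbered samples of different groups correlated at 0.022 to 0.066 in their deviations from group means, and other pairs at -0.08 to 0.072. Of 20 samples, 9 correlated best with their own number. Whether the replicate numbers pair the samples is not settled by these values, and the main fit has no replicate term. Over all groups, 507 genes were higher and 565 lower in replicates 3 and 4 than in replicates 1 and 2. Both counts exceed every main-fit count given above. That division was found after the values were seen and has more libraries on each side. Library totals gave 277 genes at 50 °C, 420 from 46 to 50 °C and 38 from 50 to 54 °C. They moved the median log2 difference of all genes to -0.102 at 50 °C and -0.177 from 46 to 50 °C, and the share of higher calls from 64.1% to 74.2% at 46 °C, 43.2% to 18.1% at 50 °C, 49% to 11% from 46 to 50 °C, 29.2% to 57.9% from 50 to 54 °C and 37.7% to 20.6% from 46 to 54 °C. DESeq2 moved the share from 50 to 54 °C to 50%. No filter gave 38 genes at 54 °C. Replicates 1 and 2 alone gave 261 genes at 46 °C, 236 from 46 to 50 °C, 38 from 50 to 54 °C and 215 from 46 to 54 °C, and replicates 3 and 4 alone gave 64 genes at 46 °C, 61 at 50 °C, 75 from 46 to 50 °C and 43 from 46 to 54 °C. For nanoparticles alone the count of 0 became 2 without a filter, 4 within replicates 1 and 2 and 2 within replicates 3 and 4. Leaving out 1 library gave 0 to 1 genes for nanoparticles alone, 80 to 122 at 50 °C, 8 to 16 at 54 °C, 96 to 139 from 46 to 50 °C and 49 to 79 from 46 to 54 °C. Counts moved by over 1.5 times without replicate 1 or 4 of nanoparticles alone against untreated cells, at 50 °C without replicate 2 of nanoparticles alone or replicate 1 or 2 at 50 °C, at 54 °C without replicate 2 or 4 of nanoparticles alone or replicate 1, 2 or 3 at 54 °C, from 46 to 50 °C without replicate 2 at 46 °C, and from 46 to 54 °C without replicate 3 at 54 °C. Fewer samples enter the fits within a pair of replicates, and otherwise the cause was not tested. CRYAB, at 13 counts, is limited by depth.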
